A study of Danio rerio with 8 samples.

Results

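MZspg zebrafish embryos, which lack both the maternal and the zygotic supply of functional spg (now pou5f3), were compared with wild-type (WT) embryos at 60% epiboly, a gastrula stage reached about 7 hours after fertilisation. The members were chosen by their labels alone: the 2 MZspg and 2 WT arrays of this stage out of 8 arrays in all, with all 12447 probe sets of the array that are not controls. Of these, 7375 were bright enough to be tested. The MZspg embryos carried the m793 allele of spg, and AB and TÜB fish were crossed to give the WT embryos, so the genotypes also differ in the stock from which they were raised. Embryos were timed from in vitro fertilisation or from the 4-cell stage, and each sample was total RNA of 120 pooled whole embryos, hybridised to 1 Affymetrix array. The other 4 arrays hold the same 2 genotypes at 30% epiboly (4.7 hours), and here they serve to estimate the spread between replicates and to place each difference in time. As RNA of whole embryos was measured, fewer cells of a type and less RNA per cell cannot be told apart.

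Pou5f3 is a POU-domain transcription factor related to mammalian Oct4. It is supplied to the zebrafish egg as mRNA and, with SoxB1 factors and Nanog, it binds regulatory DNA of genes that are first transcribed when the zygotic genome is activated. Gastrulation is the stage at which the embryo spreads over the yolk (epiboly), mesoderm and endoderm move inwards, and Bmp, Nodal, Fgf and Wnt signals set up the body axes. The blastoderm is covered by the enveloping layer, an epithelial sheet, and rests on the yolk syncytial layer, which handles yolk lipids.

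The deposited signals were already on a common scale, with the same distribution on every array. Between 15.5% and 22.4% of probe sets had no value on an array of this stage, and such empty cells are given below as no value. Replicates correlated at 0.921 for MZspg and 0.952 for WT across the tested probe sets. The arrays of the second replicate of each genotype carried a stronger signal from the 18 spike-in control probe sets. The geometric mean of these was 736 on MZspg replicate 2 and 592 on WT replicate 2, against 190 on MZspg replicate 1 and 108 on WT replicate 1. As both genotypes are found at each level, the difference between genotypes is given within each replicate pair beside the pooled one. The labels call the samples biological duplicates but do not pair them, and with 2 samples per group the p-values rest on a spread shared by all 4 groups of arrays.

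MZspg embryos at 60% epiboly differed from WT embryos in both directions, with similar numbers of transcripts higher and lower at the settings used. With limma's moderated test on log2(signal + 9), 333 of 7375 probe sets (4.52%) were called at an adjusted p under 0.05, 168 (2.28%) higher and 165 (2.24%) lower in MZspg. This balance depended on the filter on dim probe sets. A stricter filter gave 37 higher and 79 lower, and no filter gave 159 higher and 101 lower. The MZspg and WT arrays did not overlap for any of the 333, but that was also true of 51.8% of all tested probe sets. Arrays that do not overlap must give the same sign in both replicate pairs, so that all 333 had it is not a further result. Of all tested probe sets, 67.3% had the same sign in both pairs. The smallest called difference was 1.03 on the log2 scale, the median was 1.92 for those higher and -1.92 for those lower, and 74 in each direction were past 2. Adding 9 to the signal understates the fold change of dim genes.

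The differences were larger in the second replicate pair for most probe sets that were higher in MZspg. Their median log2 difference was 1.68 in the first pair and 2.3 in the second, and 123 of the 168 were larger in the second. For those that were lower, the medians were -1.87 and -2.0, and 90 of 165 were larger in size in the second. The count of calls depended on single arrays. It was 757 without MZspg replicate 1, 119 without MZspg replicate 2, 123 or 131 when the first or second WT array of this stage was left out, and 197 or 194 for the WT arrays of 30% epiboly. A core of 73 probe sets (33 higher, 40 lower) passed whichever of the 8 arrays was left out.

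**Figure D1:**
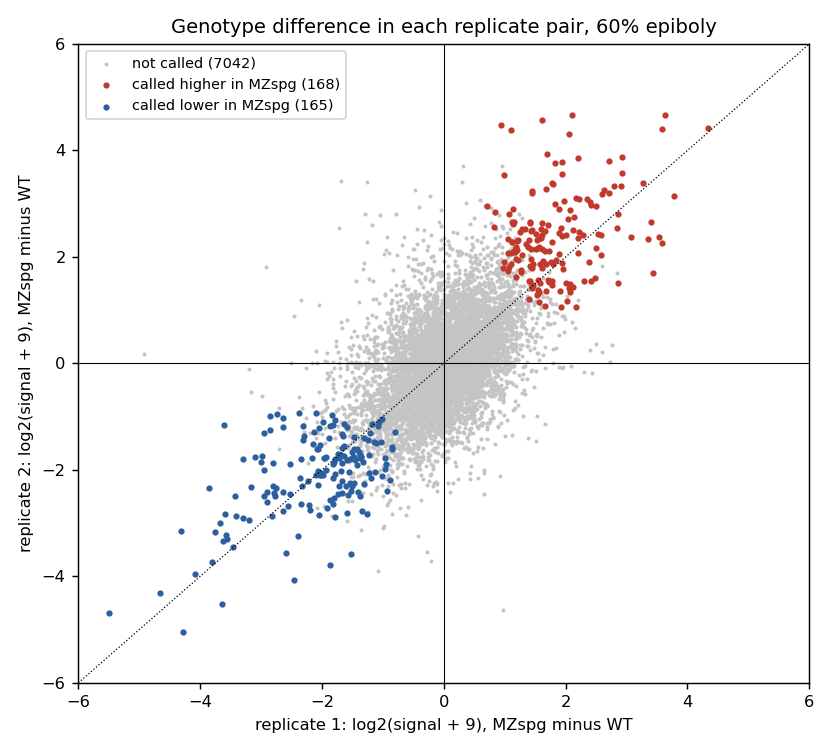
Log2 difference of MZspg over WT in the replicate 1 pair (horizontal axis) and the replicate 2 pair (vertical axis) of 60% epiboly, 1 point per tested probe set, with the line of equality dotted. The 168 probe sets called higher in MZspg (red) lie mostly above the line and the 165 called lower (blue) lie around it.

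Transcript of the mutated gene was still measured in the mutant, at a reduced level. The signal of pou5f3 was 1268 and 891 on the MZspg arrays, against 2957 and 2214 on the WT arrays. Both MZspg values lay below both WT values, as in every probe set called lower. The log2 fold change was -1.26 (SE 0.228 and adjusted p = 0.0108), with -1.22 and -1.30 in the replicate pairs. The probe set measures the transcript, not whether it encodes a functional protein. The difference at 30% epiboly was of like size (-1.19, adjusted p = 0.0223). Its call at 60% epiboly needed both WT replicate 1 and MZspg replicate 2 (adjusted p up to 0.105 when 1 was left out).

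Other factors associated with pluripotent or early embryonic cells were lower in MZspg as well. Each list was counted on the brightest probe set of each gene. Of 18 tested genes of the SoxB1 and pluripotency-type list (21 on the array), 8 fell and none rose, and the median log2 fold change was -1.40. Over all 5219 tested genes 3.95% were called, 1.95% fell, 1.99% rose and the median was 0.03. At an unadjusted p under 0.05, 12 members were lower and 1 was higher. Of all tested probe sets, 1639 of 7375 (22.2%) had such a p with limma in either direction. The medians in the replicate pairs were -1.34 and -1.31, and leaving out 1 array gave 6 to 8 lower genes and medians between -1.52 and -1.23. This list and those below were written with earlier results of these data known, and some genes are in several lists. A share of calls above that of all genes is therefore not a further result. The SoxB1 and pluripotency-type list contains pou5f3 itself.

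The SoxB1 gene sox2, a factor of neural and pluripotent cells, had no value and 8.92 on the MZspg arrays, against 225 and 152 on the WT arrays. WT embryos thus had a clear sox2 signal on both arrays and MZspg embryos had almost none. Its log2 fold change was -3.46 (SE 0.457, adjusted p = 0.00182). A second sox2 probe set had no value on either MZspg array, against 243 and 78.3 on the WT arrays, and was at least 5.60-fold lower in MZspg (adjusted p = 0.0105). An "at least" fold sets the brighter group against 24.6, the level below which 95% of signals lie whose replicate has no value. The other SoxB1 genes did not pass: sox3 had a log2 fold change of -0.16, sox19a of -0.61 and sox19b of -1.39 (lowest adjusted p = 0.164, for sox19b).

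The homeobox gene nanog, which acts beside Pou5f3 at genome activation, had signals of 326 and 166 on the MZspg arrays, against 1053 and 936 on the WT arrays. Both MZspg values were below both WT values, as in every probe set called lower (log2 fold change -2.05, SE 0.342, adjusted p = 0.00719). The forkhead gene foxd3, a factor of neural crest and of pluripotent cells in mouse, had signals of 24.7 and 29.2 in MZspg, against 420.2 and 296 in WT. Both replicates of each genotype were close and far from the other genotype (-3.33, SE 0.398, adjusted p = 0.00111). The Krüppel-type factor klf17 had 94.98 and 102 in MZspg, against 695 and 551 in WT (-2.55, adjusted p = 0.00275). The Myc-family gene mych had 33.7 and 44.8 in MZspg, against 376 and 262 in WT (-2.75, adjusted p = 0.00166). The PR-domain gene prdm14 had no value and 3.07 in MZspg, against 64.0 and 49.9 in WT (-2.18, adjusted p = 0.0054).

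The Nodal co-receptor gene tdgf1 was the remaining member called, with signals of 513 and 276 in MZspg, against 1138 and 1158 in WT (-1.59, SE 0.347, adjusted p = 0.0241). Leaving out either WT array or MZspg replicate 2 of this stage lost its call (adjusted p up to 0.167), as was that of the second sox2 probe set without WT replicate 1 or MZspg replicate 2 (0.0715). The calls of nanog, foxd3, klf17, mych, prdm14 and the first sox2 probe set held whichever array was left out. Among uncalled members, klf2b had -1.64 (adjusted p = 0.0731), klf2a -1.40 (0.074), mycn -1.38 and mycb 0.42. The T-box gene tbx16 had -0.16 and the zinc finger gene sall4 0.18.

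The transcripts with the largest reductions came from genes of varied function. They were picked from called genes whose MZspg and WT arrays did not overlap, so that separation is not a further result. An unnamed gene, si:ch211-152c2.3, was among the brightest of these transcripts. Its signal was 179.5 and 193 on the MZspg arrays, against 4746 and 3986 on the WT arrays (log2 fold change -4.48, SE 0.452, adjusted p = 6.00e-04). The zinc finger repressor gene snai2, known for its part in epithelial-mesenchymal transition and neural crest, had 6.26 and 6.19 in MZspg, against 249 and 228 in WT. The MZspg signals were near the low end of the scale on both arrays (-4.02, SE 0.341, adjusted p = 1.92e-04), and the log2 fold change was -2.82 with 32 added to the signal. For this and other genes with a group near background the value depends on the number added, and so does the gene's rank by size. A second unnamed gene, si:dkey-27i16.2, lacked a value on both MZspg arrays, against 233 and 221 on the WT arrays, so that it was lower by at least 9.23-fold (adjusted p = 0.00102).

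Several enzymes were in this group. The sulfotransferase gene sult6b1 had 40.01 and 94.2 in MZspg, against 968 and 903 in WT (-3.73, SE 0.39, adjusted p = 6.70e-04). The mitochondrial arginase gene arg2 had 10.2 and no value in MZspg, against 202 and 179.9 in WT (-3.45, SE 0.373). Serine hydroxymethyltransferase 2 (shmt2), an enzyme of mitochondrial one-carbon metabolism, had 77.9 and 22.1 in MZspg, against 516 and 360.5 in WT (-3.08, SE 0.463). The glycerol-3-phosphate dehydrogenase gene gpd1b had 84.8 and 29.0 in MZspg, against 486 and 348 in WT (-2.82, SE 0.459). As the choice of genes required, both MZspg arrays were below both WT arrays in each of the 4 enzymes. The deacetylase gene amdhd2, which acts on N-acetylglucosamine phosphate, was lower by a similar measure (-2.64, SE 0.38).

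Cytoskeletal and junctional genes were there too. The transgelin tagln2, an actin-binding protein, had 10.4 and 29.0 in MZspg, against 232 and 375 in WT (-3.49, SE 0.411, adjusted p = 0.00102). The plakophilin pkp3a, a desmosome component, had 30.2 and 56.5 in MZspg, against 465 and 459 in WT (-3.22, SE 0.387, adjusted p = 0.00113). The gelsolin-family gene scinlb had 7.70 and no value in MZspg, against 171 and 88.5 in WT (-2.96, SE 0.376). As the choice of genes required, every WT array was above every MZspg array in all 3.

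The Frizzled receptor gene fzd9b was lower on both of its probe sets. One had 5.38 and 8.15 in MZspg, against 144 and 117 in WT (-3.14, SE 0.357). The other had 7.60 and no value in MZspg, against 155 and 120.4 in WT (-3.10, SE 0.344). In MZspg both were near background, so these values depend on the 9 added to the signal (-2.06 and -2.08 with 32 added) and do not measure a fold change. Of the genes with several tested probe sets, 8 were lower on at least 2 of them: sox2, fzd9b, lrwd1, atp1b1a, mkrn4, si:ch211-157c3.4, ddt and khdrbs1a. For lrwd1, whose human homologue binds the origin recognition complex, the probe sets gave -3.40 and -2.45. In khdrbs1a 2 of 5 probe sets were called (-1.04 and -1.63). Another gene, sde2, was called on 1 probe set (-2.83) while its other one gave 0.29, and sox11a, a SoxC neural factor, was called on 1 probe set (-3.07) while the other 2 gave -1.0 and -0.14.

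Most of these reductions did not depend on 1 array. The calls of si:ch211-152c2.3, snai2, si:dkey-27i16.2, sult6b1, arg2, shmt2, amdhd2, tagln2, pkp3a, scinlb, sox11a and both fzd9b probe sets held whichever array was left out. That of gpd1b was lost without WT replicate 1 of this stage (adjusted p = 0.0533), and that of the weaker lrwd1 probe set without WT replicate 1 or MZspg replicate 2 (highest adjusted p = 0.0794). The call of sde2 was lost when either WT array or MZspg replicate 2 was left out (0.0802), and its log2 fold change ranged from -3.85 to -1.80 over the arrays left out. In khdrbs1a the call of each probe set was lost without 5 of the 8 arrays, which were both WT arrays of either stage and MZspg replicate 2 of this one (highest adjusted p = 0.234), and the value of -1.04 ranged from -1.49 to -0.60. Those of mkrn4, si:ch211-157c3.4, ddt and the dimmer atp1b1a probe set were lost without WT replicate 1 of this stage and without further arrays (highest adjusted p from 0.108 to 0.227), and 1 probe set of si:ch211-157c3.4 ranged from -2.57 to -1.11.

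**Figure D2:**
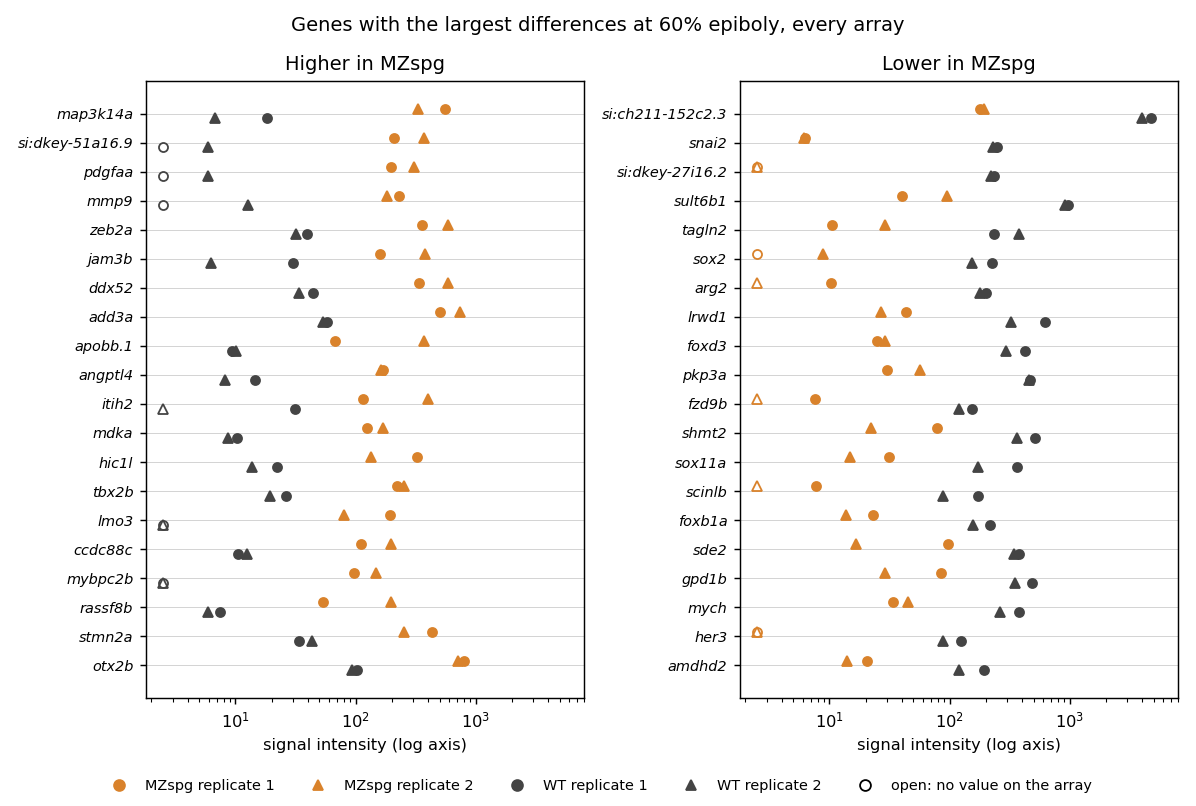
Signal on each array of 60% epiboly (log axis) for the 20 genes with the largest called difference in each direction, MZspg in orange and WT in grey, circles for replicate 1 and triangles for replicate 2. Open symbols at the left edge mark arrays with no value. In every gene both MZspg arrays lie on the same side of both WT arrays, as the choice of genes required.

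The transcripts with the largest increases were mostly near the low end of the signal range in WT embryos. They were picked by the same rule as the largest reductions, and choice by fold change favours genes that are dim in either genotype. Low WT signal is therefore not a further result. At this stage pdgfaa and mmp9, for example, reached 41.0, the signal needed for testing, only in MZspg. Among the reductions, snai2 and arg2 reached it only in WT. The kinase gene map3k14a, whose mammalian homologue activates the non-canonical NF-kappaB pathway, had signals of 549 and 328 on the MZspg arrays, against 18.5 and 6.74 on the WT arrays (log2 fold change 4.38, SE 0.623, adjusted p = 0.00264). The platelet-derived growth factor gene pdgfaa had 199 and 305 in MZspg, against no value and 5.91 in WT (3.99, SE 0.439, adjusted p = 7.09e-04). Midkine a (mdka), a heparin-binding growth factor, had 125 and 169 in MZspg, against 10.3 and 8.70 in WT (3.06, SE 0.458). All 3 were bright on both MZspg arrays and were dim or had no value on the WT arrays. The unnamed gene si:dkey-51a16.9 had 207 and 368 in MZspg, against no value and 5.91 in WT (4.15, SE 0.444).

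Several genes of transcriptional regulators were also in the top 20. The E-box-binding repressor zeb2a, known for its role in epithelial-mesenchymal transition and in neural development, had 358 and 587 in MZspg, against 39.5 and 31.8 in WT (3.39, SE 0.377, adjusted p = 7.09e-04). The T-box repressor gene tbx2b had 222 and 252 in MZspg, against 26.3 and 19.4 in WT (2.95, SE 0.416, adjusted p = 0.00258). The zinc finger gene hic1l had 322 and 135 in MZspg, against 22.2 and 13.8 in WT (3.03, SE 0.429). Each was several times brighter on both MZspg arrays than on either WT array. The LIM-only gene lmo3 had 192 and 80.4 in MZspg and no value in WT, and was at least 5.05-fold higher (adjusted p = 0.0117).

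Other large increases were in genes of the matrix, the cortex and differentiated cells. The gelatinase gene mmp9 had 228 and 183 in MZspg, against no value and 12.8 in WT (3.46, SE 0.463, adjusted p = 0.00193). The adducin add3a, which links spectrin to actin, had 503 and 733 in MZspg, against 58.1 and 53.2 in WT (3.25, SE 0.334, adjusted p = 6.29e-04), although a dimmer add3a probe set gave -0.78. The junctional adhesion gene jam3b had 160 and 379 in MZspg, against 30.4 and 6.27 in WT (3.38, SE 0.514), and its second probe set gave 1.89. The only other gene higher on both of its probe sets was qdprb.4 (1.74 and 1.66). The 2 add3a probe sets therefore went opposite ways, whereas those of jam3b both rose. The helicase gene ddx52 had 339 and 590 in MZspg, against 44.2 and 33.8 in WT (3.26, SE 0.374).

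Stathmin 2a (stmn2a), a microtubule regulator of neurons, had 430 and 254 in MZspg, against 33.8 and 43.1 in WT (2.85, SE 0.461, adjusted p = 0.00606). The myosin-binding gene mybpc2b, known from fast muscle, had 96.3 and 148 in MZspg and no value in WT, and was at least 4.85-fold higher (adjusted p = 0.0197). Both were brighter on both MZspg arrays than on either WT array, as the choice of genes required. The matrix gene itih2 had 114 and 401 in MZspg, against 31.4 and no value in WT (3.09, SE 0.56). Also in the top 20 were ccdc88c (2.94), whose mammalian homologue binds Dishevelled, and rassf8b (2.86).

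The calls of map3k14a, pdgfaa, mdka, si:dkey-51a16.9, zeb2a, tbx2b, hic1l, mmp9, add3a, ddx52, stmn2a, ccdc88c and the stronger jam3b probe set held whichever array was left out. That of lmo3 was lost without either WT array of this stage (highest adjusted p = 0.0557) and that of itih2 without WT replicate 2 or MZspg replicate 2 (0.0794). The calls of mybpc2b (0.153) and rassf8b (0.083) were lost when either WT array or MZspg replicate 2 was left out. The qdprb.4 probe sets were lost without these 3 arrays too (0.157). The second jam3b probe set was lost without any WT array of either stage or MZspg replicate 2 of this one (0.215).

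Genes that pattern the neural plate and brain moved both ways. Of 22 tested (53 on the array), 4 rose and 2 fell, with a median of -0.03. That is 27.3% called, against 3.95% of all genes tested. The homeobox gene otx2b, a marker of the future forebrain and midbrain, had signals of 799 and 705 on the MZspg arrays, against 102 and 93.6 on the WT arrays. All 4 values were far from the other genotype's (log2 fold change 2.83, SE 0.491, adjusted p = 0.00913). Its paralogue otx2a had -1.07 (adjusted p = 0.24) and did not pass. The eye and hindbrain gene pax6a had 91.0 and 85.0 in MZspg and no value on either WT array, and was at least 3.57-fold higher (adjusted p = 0.00193). The Hox cofactor gene pbx4 rose (1.73, SE 0.418, adjusted p = 0.0379). The forkhead gene foxb1a, expressed in the neural plate, had 23.2 and 13.6 in MZspg, against 218 and 155 in WT (-2.84, SE 0.388, adjusted p = 0.00223).

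The Hairy-type repressors, which act in Notch signalling and neural plate patterning, were divided. The gene her3 had no value on either MZspg array, against 125 and 88.3 on the WT arrays, so that it was lower by at least 4.26-fold (adjusted p = 0.00154). By contrast her9 had 204 and 466 in MZspg, against 57.2 and 40.1 in WT (2.48, SE 0.467, adjusted p = 0.0126). The gene her2 had 41.4 and 69.4 in MZspg and no value in WT, and was at least 2.18-fold higher (adjusted p = 0.0128). At this stage only its MZspg arrays reached 41.0, the signal needed for testing. The related gene hey1 had 73.1 and 92.8 in MZspg, against 21.4 and 17.0 in WT (1.70, SE 0.356). Among Notch ligands, deltaB (dlb) had 144 and 47.4 in MZspg, against 5.16 and no value in WT (2.57, SE 0.447, adjusted p = 0.00913). The ligands dla (-0.57), dlc (0.13) and dld (-0.06) and the receptor genes notch1a (-1.45), notch2 (0.81) and notch3 (0.30) were not called. Over 21 tested genes of the Notch list 4 rose and 1 fell, and the median was 0.06. These calls are 23.8% of the Notch list, against 3.95% of all genes tested. The array holds 13 Hox genes, and none was bright enough to be tested.

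The calls of pax6a, foxb1a and her3 held whichever array was left out. That of otx2b was lost when WT replicate 2 or MZspg replicate 2 was left out (highest adjusted p = 0.0548), as was that of her9 (0.11), and that of dlb was lost without WT replicate 1 (0.0516). Calls of her2 (0.0794) and hey1 (0.128) were lost when either WT array or MZspg replicate 2 was left out, and that of pbx4 without 5 arrays (0.205), namely both WT arrays of 30% epiboly and every array of 60% epiboly but WT replicate 1.

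Some genes of the Bmp pathway and of the ventral ectoderm were lower in MZspg, among them the ligand genes bmp4 and bmp7a, and a few were higher. Of 28 tested genes of the Bmp and ventral list (37 on the array), 3 rose and 7 fell, with a median of -0.37 and pair medians of -0.27 and -0.56. That is 35.7% called, against 3.95% of all genes tested. The ligand gene bmp4 had signals of 21.4 and 12.1 on the MZspg arrays, against 91.7 and 63.5 on the WT arrays (log2 fold change -1.75, SE 0.359, adjusted p = 0.0184). The ligand gene bmp7a had 9.43 and no value in MZspg, against 106 and 30.8 in WT (-1.92, SE 0.478, adjusted p = 0.0424). The third ligand, bmp2b, had -0.92 and did not pass (adjusted p = 0.125). The MZspg values of bmp4 and bmp7a were below those of WT on every array, as in every probe set called lower. The WT arrays of bmp7a were far apart. Sizzled (szl), a secreted feedback inhibitor that depends on Bmp signalling, had 83.3 and 84.1 in MZspg, against 209 and 245 in WT (-1.34, SE 0.332, adjusted p = 0.0415).

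Ectodermal factors formed most of the other reductions. The AP-2 gene tfap2c had 6.02 and no value in MZspg, against 120 and 49.8 in WT (-2.43, SE 0.413, adjusted p = 0.00811). Its relative tfap2a had 157 and 263 in MZspg, against 671 and 775 in WT (-1.78, SE 0.334, adjusted p = 0.0126). The forkhead gene foxi1, a factor of placodes and epidermal ionocytes, had 30.3 and 33.4 in MZspg, against 193 and 179.7 in WT (-2.26, SE 0.413, adjusted p = 0.0114). The GATA factor gata2a had 104 and 179.6 in MZspg, against 464 and 759 in WT (-2.05, SE 0.379, adjusted p = 0.0116). In all 4 genes no MZspg array reached the lower WT array, as in every probe set called lower. Of the ventral homeobox genes, vox (-0.11) and ved (-0.25) were not called.

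Besides tbx2b, the genes higher in this list were msx3 and smad6a. The homeobox gene msx3 had 154 and 104 in MZspg, against 26.4 and 17.8 in WT (2.14, SE 0.383, adjusted p = 0.0105). The inhibitory Smad gene smad6a had 84.0 and 97.4 in MZspg, against 34.3 and 20.3 in WT (1.48, SE 0.355, adjusted p = 0.0362). The Bmp-responsive genes id1 (0.31), id2a (0.13) and id3 (0.32) were not called. Of the 10 called genes of the list, tfap2c and tbx2b passed in all 8 fits that left out 1 array. The calls of gata2a and msx3 were lost without WT replicate 2 of this stage (adjusted p = 0.0953 and 0.0645), that of tfap2a without either WT array (0.0864), and that of bmp4 without WT replicate 1 or MZspg replicate 2 (0.128). Without either WT array or MZspg replicate 2 that of foxi1 was lost (0.0656). The calls of bmp7a (0.264) and smad6a (0.161) held in 1 of the 8 fits and that of szl in none (0.181), and bmp7a ranged from -2.69 to -1.16 over them.

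Genes of the dorsal organizer and axial mesoderm were not called, apart from otx2b, which the list also holds. Of 18 tested, the median was -0.38, and 1 gene was lower at an unadjusted p under 0.05. The organizer genes gsc (-0.29), noto (0.15), admp (0.36) and dkk1b (-0.68) had small differences, and the Bmp antagonist chrd had -1.37 (adjusted p = 0.0882). Among 18 tested genes of the Nodal and endoderm list the median was -0.50, and 14 were below 0. The Nodal co-receptor gene tdgf1 and the chemokine receptor gene cxcr4b fell, and the chemokine gene cxcl12b rose. The values of cxcr4b and cxcl12b are given below. Calls were 16.7% of this list, 10% of the mesoderm list and 5.56% of the organizer list, against 3.95% of all genes tested. The ligand ndr1 (-0.56), the endoderm factor sox32 (-0.64) and the feedback inhibitors lft1 (-1.27) and lft2 (0.11) were not called. Of 20 tested mesoderm genes, tbx2b and tbx6 rose and none fell, none also at an unadjusted p under 0.05. The T-box gene tbx6 had signals of 57.5 and 178 on the MZspg arrays, against no value and 7.02 on the WT arrays (2.74, SE 0.449, adjusted p = 0.00627). Its relatives tbxta (-0.43), tbx16 (-0.16) and tbx16l (0.65) were not called, and neither was msgn1 (0.47). The call of tbx6 held whichever array was left out.

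Ligands and receptors that guide migrating mesendoderm and germ cells changed in opposite directions. The apelin receptor gene aplnra had signals of 1199 and 1392 on the MZspg arrays, against 395 and 263 on the WT arrays (log2 fold change 1.97, SE 0.311, adjusted p = 0.00508). Its ligand gene apela had 214 and 154 in MZspg, against 563 and 545 in WT (-1.56, SE 0.336, adjusted p = 0.0229). The receptor transcript was thus higher, and the ligand transcript lower, on both MZspg arrays, and such separation was found for every called probe set. The chemokine gene cxcl12b had 241 and 684 in MZspg, against 117 and 51.0 in WT (2.26, SE 0.519, adjusted p = 0.0303). The chemokine receptor cxcr4b had 73.8 and 76.9 in MZspg, against 283 and 183 in WT (-1.49, SE 0.364, adjusted p = 0.04). The second receptor, cxcr4a, had -0.68 and the scavenger receptor ackr3b 0.95, and neither was called. Of 7 tested genes of the apelin and chemokine list 2 rose and 2 fell, which is 57.1%, against 3.95% of all genes tested.

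These calls depended on single arrays. That of aplnra was lost without WT replicate 2 of this stage (adjusted p = 0.0503) and that of apela when either WT array or MZspg replicate 2 was left out (highest adjusted p = 0.136). The call of cxcl12b was lost when WT replicate 2 or MZspg replicate 2 of this stage, or either WT array of 30% epiboly, was left out (0.227), and its difference was 0.99 in the first replicate pair and 3.53 in the second. For cxcr4b it was lost without any one array other than the MZspg arrays of 30% epiboly (0.269).

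Genes of cell adhesion and the cell cortex included large changes in both directions. Of 6 tested genes of the Snail, Zeb and Twist list, zeb2a and the metalloprotease gene mmp9 rose and snai2 fell. Their relative snai1a had -0.30, E-cadherin (cdh1) -0.36 and N-cadherin (cdh2) 0.52, and none of these passed. The protocadherin pcdh10b had 47.3 and 137 in MZspg, against 17.8 and 11.9 in WT (1.94, SE 0.436, adjusted p = 0.0278). Of 17 tested claudin and tight junction genes, jam3b and cldnf rose, jam2a fell and the median was 0.54. Calls were 50% of the Snail, Zeb and Twist list and 17.6% of the tight junction list, against 3.95% of all genes tested. The former share rests on 6 tested genes, and mmp9 is counted again in the matrix list and the NF-kappaB and innate list. Claudin f (cldnf) had 132 and 99.8 in MZspg, against 23.0 and 7.08 in WT (2.45, SE 0.452, adjusted p = 0.0116). The junctional gene jam2a had 89.4 and 76.6 in MZspg, against 296 and 244 in WT (-1.60, SE 0.317, adjusted p = 0.0161), opposite to jam3b.

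In the matrix list, col15a1a and mmp9 rose and has2 and itgb5 fell, of 19 tested (52 on the array). That is 21.1% of the matrix list, against 3.95% of all genes tested. The median was -0.58, with -0.47 and -0.09 in the replicate pairs. The collagen gene col15a1a had 57.1 and 92.1 in MZspg and no value in WT, and was at least 2.95-fold higher (adjusted p = 0.00448). The hyaluronan synthase gene has2 had -1.54 (adjusted p = 0.0463) and the integrin subunit gene itgb5 -1.52 (0.0249). Among 59 tested actin cytoskeleton genes 3 rose, add3a and the Cdc42 effector gene cdc42ep5 (1.60, SE 0.403) among them, and tagln2 fell. That is 6.78% of the actin list, against 3.95% of all genes tested. The call of col15a1a held whichever array was left out, and that of cldnf was lost without WT replicate 2 (adjusted p = 0.0751). Those of jam2a, has2, itgb5, cdc42ep5 and pcdh10b were each lost without at least 3 arrays, among them both WT arrays and MZspg replicate 2 of this stage (highest adjusted p from 0.128 for itgb5 to 0.269 for has2). The value of pcdh10b ranged from 1.25 to 2.62 over the arrays left out.

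The enveloping layer list held large reductions in a few genes, while its keratin markers did not pass. Of 34 tested genes, pkp3a, sult6b1, tagln2 and klf17 fell and cldnf rose, and the median was -0.06 (-0.44 and 0.12 in the replicate pairs). That is 14.7% called, against 3.95% of all genes tested. Keratin 4 (krt4) had signals of 1530.5 and 1126 on the MZspg arrays, against 3179 and 2513 on the WT arrays (log2 fold change -1.10, SE 0.385, adjusted p = 0.124). Keratin 5 (krt5) had 397 and 608 in MZspg, against 1976 and 1351 in WT (-1.72, SE 0.55, adjusted p = 0.0983). Both keratins had lower signals on both MZspg arrays but did not pass the test. Claudin b (cldnb), also a marker set for this layer, went the other way without passing. It had 382 and 257 in MZspg, against 139 and 82.1 in WT (1.47, SE 0.456, adjusted p = 0.0882). Keratin 17 (krt17) had 0.54, with -0.98 and 2.05 in the replicate pairs. Over all 7 tested keratins 2 were lower at an unadjusted p under 0.05 and none was called, with a median of -0.66 (-1.05 and -0.15 in the replicate pairs). The transcription factor grhl1 had 0.71 and the plakin ppl 0.19. Of 13 markers set for this layer 11 were on the array and none was called, and their summed signal was 8555 and 11351 in MZspg, against 14589 and 11596 in WT.

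Markers of germ cells and of later tissues gave small numbers. Of 15 tested germ plasm and germ cell genes cxcr4b and nanos3 fell and none rose, and 4 were lower at an unadjusted p under 0.05. These calls are 13.3% of the list, against 3.95% of all genes tested. The median was -0.70, but -0.30 and -0.38 in the replicate pairs. The germ cell gene nanos3 had 46.3 and 56.3 in MZspg, against 192 and 139 in WT (-1.52, SE 0.351, adjusted p = 0.0312). The vasa homologue ddx4 had 222 and 128 in MZspg, against 405 and 341 in WT, and did not pass (-1.10, adjusted p = 0.101). The call of nanos3 held in 2 of the 8 fits, those without an MZspg array of 30% epiboly (highest adjusted p = 0.217). Of 11 markers of neurons, muscle, heart, blood, pancreas and lens 3 were on the array. Of these stmn2a rose, elavl3 had at most 18.1 on any array, and the cardiac gene tnnt2a had no value on any array of this stage.

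Genes of the yolk syncytial layer were among those with higher values in MZspg, and more so in the second replicate pair. Of 20 tested genes 3 rose and 1 fell, 8 were higher at an unadjusted p under 0.05, and the median was 0.68 (0.11 and 0.81 in the replicate pairs). These calls are 20% of the list, against 3.95% of all genes tested. The gene angptl4, an inhibitor of lipoprotein lipase, had signals of 168 and 164 on the MZspg arrays, against 14.6 and 8.16 on the WT arrays. Both MZspg arrays agreed closely and stood far above WT (log2 fold change 3.12, SE 0.339, adjusted p = 7.09e-04), and it stayed called with any 1 array left out. Apolipoprotein B (apobb.1) had 67.0 and 371 in MZspg, against 9.29 and 10.2 in WT (3.18, SE 0.586, adjusted p = 0.0115). The fatty acid-binding gene fabp1b.1 had 85.8 and 688 in MZspg, against 35.2 and 24.4 in WT (2.74, SE 0.685, adjusted p = 0.0437). In both of these MZspg replicate 2, an array with high spike-in signal, was far above MZspg replicate 1.

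Apolipoprotein A-I (apoa1a) had 484 and 1225 in MZspg, against 244 and 197 in WT, and did not pass (1.77, adjusted p = 0.0751). Apolipoprotein A-II (apoa2) had 44.95 and 221 in MZspg, against 34.6 and 12.7 in WT (1.86, adjusted p = 0.0925). The regulator hnf4a, in contrast, was as high on MZspg replicate 1, with 101 and 78.2 in MZspg, against 49.4 and 38.4 in WT (0.90, adjusted p = 0.169). The factor mxtx2, which specifies this layer, had 8.12 and 16.6 in MZspg, against 11.3 and 32.9 in WT, and the abundant apoeb had -0.38. The leucine zipper gene cebpb fell (-1.31, SE 0.286, adjusted p = 0.0241), though not without any WT array of either stage or MZspg replicate 2 (highest adjusted p = 0.161). Over the arrays left out, the list's median lay between 0.45, without WT replicate 2, and 0.84, without MZspg replicate 1, and 1 to 6 of its genes rose. The 11 markers set for the layer summed to 9195 and 12622 in MZspg, against 10212 and 9457 in WT. The largest signals in these sums were those of ctsla (4264 and 4676 in MZspg, 4522 and 4072 in WT) and apoeb (2403 and 2698 in MZspg, 3297 and 3353 in WT). Dimmer markers such as apobb.1 and hnf4a added little to them. The call of apobb.1 was lost without WT replicate 1 (adjusted p = 0.0546), and its log2 fold change ranged from 2.02 to 4.34. That of fabp1b.1 held only without MZspg replicate 1 of this stage (highest adjusted p = 0.161), and its value was 1.30 without MZspg replicate 2.

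Of the signalling lists other than Bmp and Notch, some held several calls and others few or none. Calls were 30% of the growth factor list and 28.6% of the NF-kappaB and innate list, against 3.95% of all genes tested. Some of the called genes, angptl4, mmp9 and cebpb among them, are counted in other lists too. Among 10 tested growth factor and receptor genes pdgfaa, mdka and angptl4 rose and none fell, none also at an unadjusted p under 0.05. The hepatocyte growth factor receptor gene met had 1.39 (adjusted p = 0.212) and the midkine paralogue mdkb -0.48. Of 14 tested genes of the NF-kappaB and innate list, map3k14a, mmp9 and irf1b rose and cebpb fell. The interferon-regulatory factor irf1b had 45.7 and 88.0 in MZspg and no value in WT, and was at least 2.58-fold higher (adjusted p = 0.0107), but not without MZspg replicate 2 (0.0631). The pathway's inhibitors nfkbiaa (0.12) and nfkbiab (0.30) and its subunit gene nfkb2 (-0.27) were not called.

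Fgf pathway genes gave no call. Of 12 tested, none was called and none had an unadjusted p under 0.05 with limma, and the log2 fold changes lay between -0.71, for the target gene etv4, and 0.64. Of 30 tested genes of the Wnt and planar polarity list fzd9b fell and 1 gene rose, with a median of -0.29 (0.05 without MZspg replicate 2). These calls are 6.67% of the Wnt list, against 3.95% of all genes tested. In the retinoic acid list 2 of 8 tested genes fell, which is 25%, against 3.95% of all genes tested. The binding protein gene crabp2b had 13.3 and 38.3 in MZspg, against 164 and 108 in WT (-2.13, SE 0.461, adjusted p = 0.0234). The receptor gene raraa had 13.4 and 26.1 in MZspg, against 79.5 and 66.8 in WT (-1.55, SE 0.375, adjusted p = 0.0379). Both calls were lost without any one WT array of either stage or MZspg replicate 1 of this one (highest adjusted p = 0.147 and 0.166), and that of raraa without MZspg replicate 2 as well. No call was made among 5 tested hedgehog genes, and none had an unadjusted p under 0.05.

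**Figure D3:**
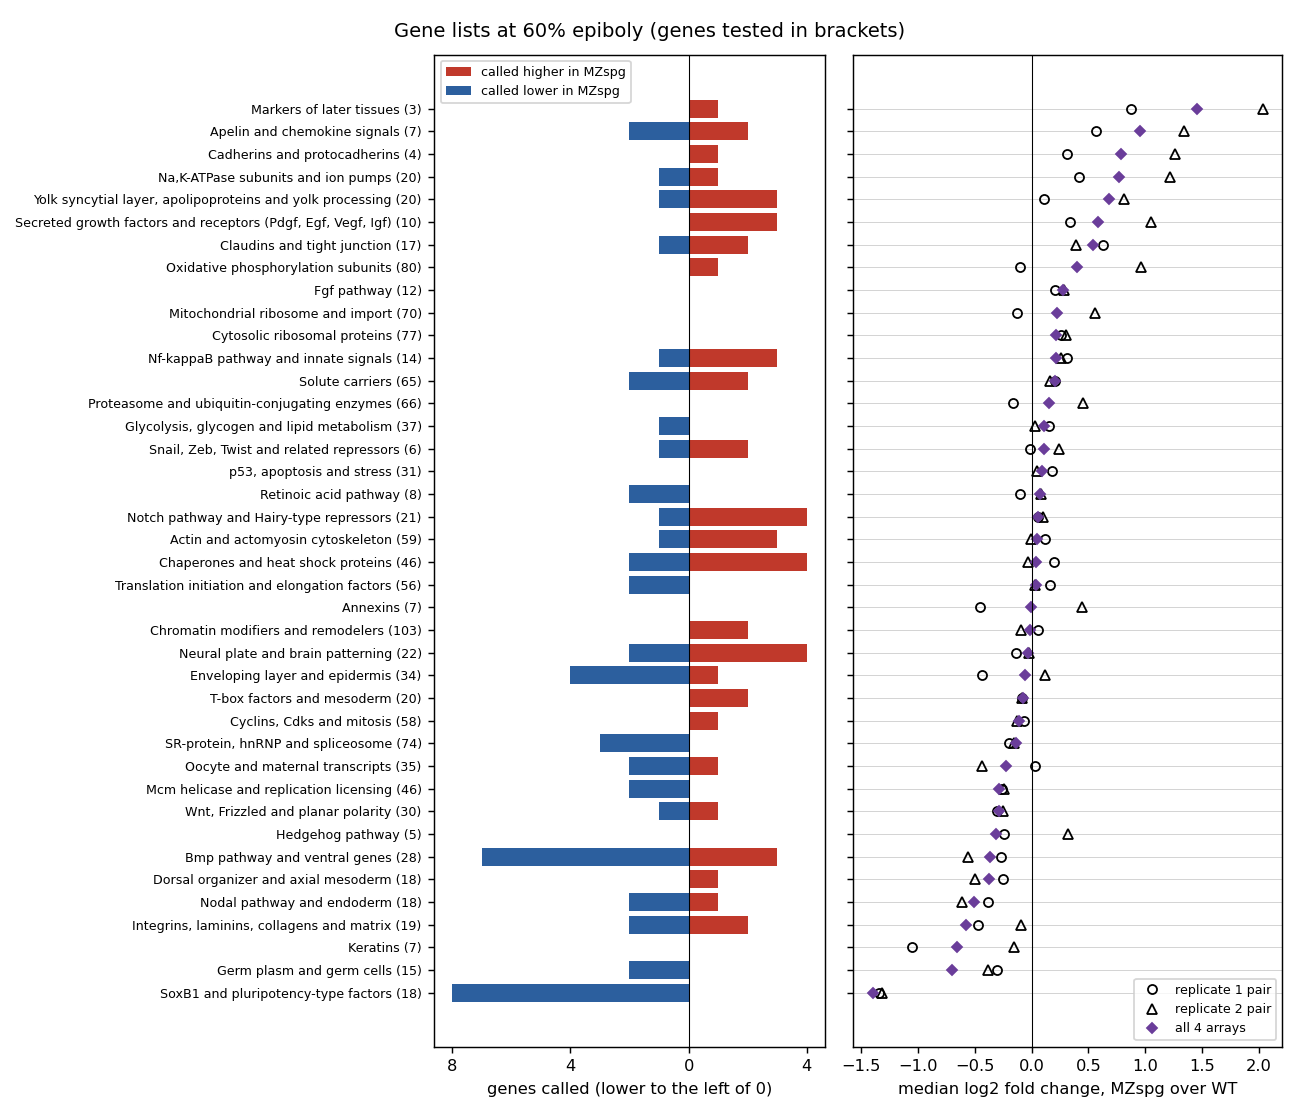
Left, number of genes called higher (red, right of 0) and lower (blue, left of 0) in MZspg at 60% epiboly in each gene list. Right, median log2 fold change of the tested members over all 4 arrays (diamonds) and in the replicate 1 (circles) and replicate 2 (triangles) pairs, with the SoxB1 and pluripotency-type list at -1.40 and the yolk syncytial layer list at 0.68.

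The housekeeping machinery of the cell gave few calls, and the size of its shifts differed between replicate pairs. Cytosolic ribosomal protein genes had a median of 0.22 over 77 tested genes, of which 63 were above 0 and none was called. At an unadjusted p under 0.05, 19 were higher and 0 lower, while 22.2% of all tested probe sets had such a p. The pair medians of the ribosomal list were 0.26 and 0.30. The closest to the threshold, rplp2, had signals of 1687 and 2607 on the MZspg arrays, against 949 and 979.7 on the WT arrays (log2 fold change 1.11, SE 0.289, adjusted p = 0.0511). Subunits of oxidative phosphorylation had a median of 0.40 over 80 tested genes, but -0.10 in the first pair and 0.96 in the second. Calls were 1.25% of this list, against 3.95% of all genes tested. In the first pair 34 were above 0 and in the second 69. The median was 0.76 with 10 genes higher and 1 lower without MZspg replicate 1, and 0.04 with none called without MZspg replicate 2. One was called, the ATP synthase subunit atp5f1e, with 460.03 and 711 in MZspg, against 198 and 177 in WT (1.57, SE 0.364, adjusted p = 0.0315), and not without either WT array or MZspg replicate 2 (highest adjusted p = 0.202).

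A split between the pairs was also seen for the mitochondrial ribosome, with -0.13 and 0.56 over 70 tested genes, and for proteasome and ubiquitin-conjugating genes, with -0.16 and 0.45 over 66. No gene was called in either list, while 3 and 8 genes were higher and 2 and 0 lower at an unadjusted p under 0.05. The second pair is the one with high spike-in signal, whose part in these shifts was not tested. Ion pump genes had pair medians of 0.42 and 1.22, 18 of 20 tested were above 0, and 10% were called, against 3.95% of all genes tested. Among them the V-ATPase subunits, a group chosen after its values were seen, were above 0 in all 11 tested genes in both pairs, between 0.18 and 1.45, with none called and 5 past an unadjusted p of 0.05. An alpha and a beta subunit gene of the sodium pump were called in opposite directions. The other tested beta subunit genes, atp1b2a (1.09), atp1b3a (0.46) and atp1b3b (0.15), were above 0 and not called. The alpha subunit gene atp1a1b had 70.8 and 82.3 in MZspg, against 11.7 and no value in WT (2.17, SE 0.365, adjusted p = 0.00746), and the beta subunit gene atp1b1a had 149 and 205 in MZspg, against 929 and 1366 in WT (-2.62, SE 0.461, adjusted p = 0.00958). The call of atp1a1b held whichever array was left out and that of atp1b1a was lost without WT replicate 2 (adjusted p = 0.0646).

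**Figure D4:**
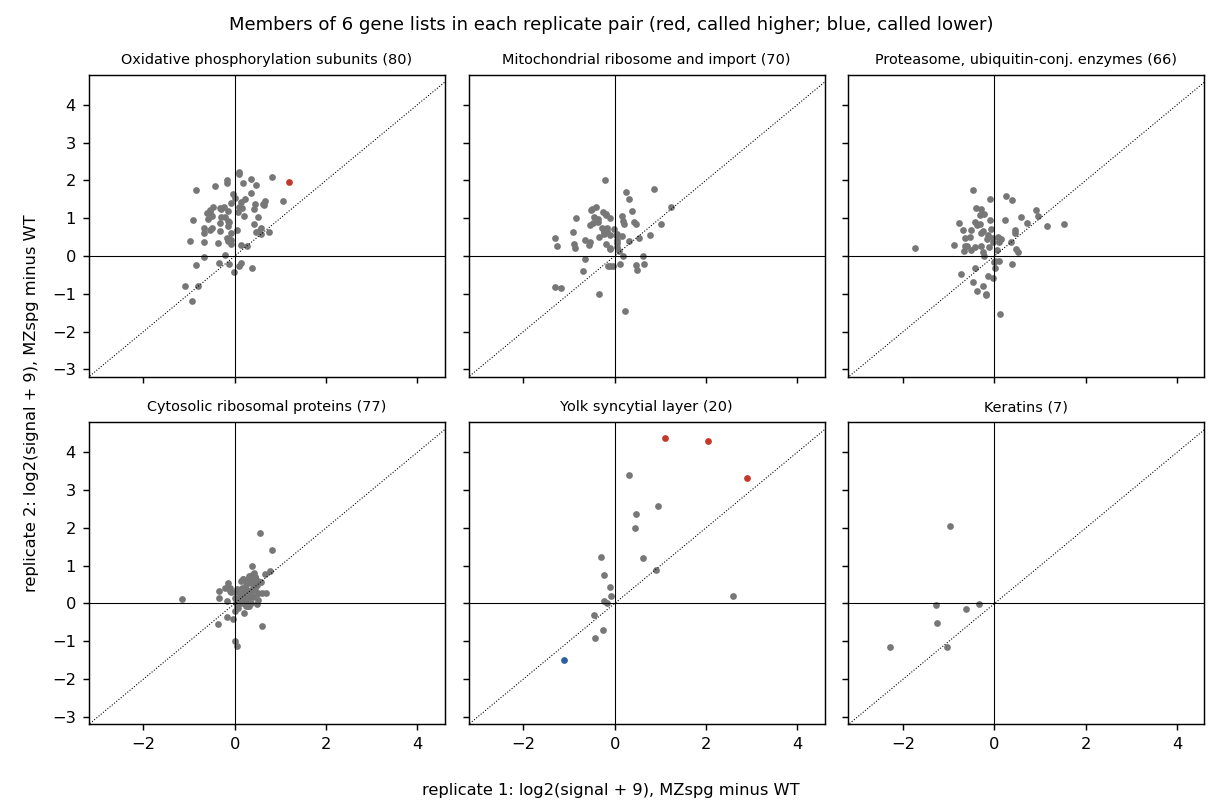
Log2 difference of MZspg over WT in the replicate 1 pair (horizontal axis) and the replicate 2 pair (vertical axis) for the tested members of 6 gene lists, with the line of equality dotted. The 80 oxidative phosphorylation genes lie mostly above 0 in the second pair only, whereas the 77 cytosolic ribosomal protein genes lie around the line, just above 0.

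Of replication and division genes, 4.35% of the Mcm and licensing list and 1.72% of the cyclin and mitosis list were called, against 3.95% of all genes tested. Of 46 tested Mcm and replication licensing genes the loading factor cdc6 and the helicase subunit mcm2 fell, 36 were below 0 and the median was -0.28. The signals of cdc6 were 227 and 207 in MZspg, against 704 and 487 in WT (-1.40, SE 0.297, adjusted p = 0.0219), and mcm2 had -1.31 (SE 0.279, adjusted p = 0.0219). Of 58 tested cyclin and mitosis genes, 1 rose, the cytokinesis gene anln (1.36, SE 0.316, adjusted p = 0.0319). None of 31 tested p53, apoptosis and stress genes was called on its brightest probe set, the p53 target tp53inp1 being nearest (1.53, adjusted p = 0.0515). At an unadjusted p under 0.05, 6 were higher and 0 lower, while 22.2% of all tested probe sets had such a p. On dimmer probe sets 2 of the 31 genes were called higher, the peroxiredoxin gene prdx1 (1.40, adjusted p = 0.0487) and apaf1 (2.38, 0.0139). The calls of cdc6, mcm2 and anln were lost when either WT array or MZspg replicate 2 of this stage was left out (highest adjusted p = 0.179 for cdc6, 0.146 for mcm2 and 0.173 for anln), and those of mcm2 and anln without other arrays too.

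RNA-processing genes were called at a share near that of all genes, with 4.05% of the splicing list and 3.57% of the translation factors, against 3.95%. Of 74 tested splicing genes 3 fell and none rose. At an unadjusted p under 0.05, 14 were lower and 2 higher, while 22.2% of all tested probe sets had such a p. The splicing factor srsf1a had 251 and 202 in MZspg, against 733 and 1029 in WT (-1.90, SE 0.352, adjusted p = 0.0116). The other 2 were srsf7a (-1.59, adjusted p = 0.0336) and hnrnpa0a (-1.16, 0.0497). Of 56 tested translation factors, the eIF4E-binding protein gene eif4ebp3l (-1.13) and eif4g3a (-1.91, its other probe set -0.78) fell. The call of srsf1a was lost when WT replicate 2 or MZspg replicate 2 was left out (highest adjusted p = 0.0917), and the other 4 were lost when either WT array or MZspg replicate 2 was left out (0.132 for eif4g3a to 0.299 for hnrnpa0a).

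Chaperones moved both ways, with 4 of 46 higher and 2 lower, which is 13%, against 3.95% of all genes tested. The calcium-binding chaperone calr had 87.7 and 43.5 in MZspg and no value in WT (at least 2.51-fold higher, adjusted p = 0.0115), hsp90aa1.2 gave 2.32, unc45b 1.75 and pfdn2 1.51. The co-chaperone st13 had 63.0 and 33.1 in MZspg, against 263 and 268 in WT (-2.32, SE 0.358, adjusted p = 0.0043), and pdia6 gave -1.42. Only the call of st13 held whichever array was left out. That of calr was lost without either WT array (0.0596), and the others without any WT array of either stage or MZspg replicate 2 of this one (highest adjusted p from 0.143 to 0.227). In hsp90aa1.2 the value ranged from 1.48 to 3.17. Of 103 tested chromatin genes 1.94% were called, against 3.95% of all genes tested. At an unadjusted p under 0.05, 6 were higher and 7 lower. Of the chromatin genes arid4a (1.84) and the demethylase kdm4b (1.97) rose and none fell. Both calls were lost when WT replicate 2 or MZspg replicate 2 was left out, and for some other arrays (0.234 and 0.17), and arid4a ranged from 1.13 to 2.55.

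Few transporter genes were called, in both directions. Of 65 tested solute carriers (113 on the array) 2 rose and 2 fell, which is 6.15%, against 3.95% of all genes tested. The fatty acid transporter slc27a2a had 76.6 and 141 in MZspg, against 7.18 and 9.41 in WT (2.71, SE 0.367, adjusted p = 0.00207). The anion exchanger slc4a2a had 142 and 109.9 in MZspg, against 8.97 and 14.1 in WT (2.72, SE 0.343, adjusted p = 0.00154). The MZspg arrays were far above the WT arrays in both, and both calls held whichever array was left out. The sugar transporter slc2a8 (-2.55, adjusted p = 0.0179) and the urea transporter slc14a2 (-2.23, adjusted p = 0.0114) fell, each with a call lost without MZspg replicate 2 and 1 WT array of this stage left out in turn (0.152 and 0.0726). Of 37 tested genes of glycolysis, glycogen and lipid metabolism only arg2, which the list also holds, was called. That is 2.7%, against 3.95% of all genes tested. Of 35 tested oocyte and maternal transcripts tdgf1 and hnrnpa0a fell and zgc:173770 rose (1.63, adjusted p = 0.0187, lost without either WT array, 0.111), with pair medians of 0.03 and -0.43. These calls are 8.57% of the oocyte list, against 3.95% of all genes tested.

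At 30% epiboly, measured on the other 4 arrays, 124 probe sets (1.68%) were called, of which 30 (0.407%) were higher and 94 (1.27%) lower in MZspg, and 9.36% had an unadjusted p under 0.05. Of the 333 called at 60% epiboly, 65 were called in the same direction at 30%, which is 19.5% of the 333 and 52.4% of the 124. These 65 were 17 higher and 48 lower. One was called in opposite directions, apela, whose difference was 1.66 at 30% epiboly. The stages share no arrays but share 1 estimate of the spread.

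Most probe sets called at 60% epiboly had a difference of the same sign at 30%, 151 of the 168 higher and 148 of the 165 lower. The share of all tested probe sets with the same sign at both stages is not given here, so these counts have no background. The median difference at 30% epiboly was -1.10 for the 165 probe sets called lower at 60%, and 0.52 for the 168 called higher. Differences of snai2 (-4.26), foxd3 (-2.73), sult6b1 (-5.56), si:ch211-152c2.3 (-5.67) and klf17 (-4.87) were already called at 30% epiboly. The sox2 difference was -0.85 at that stage and was not called (adjusted p = 0.674), nor was that of nanog (-0.89), her3 (-0.10) or prdm14 (0.29). Among higher genes map3k14a (3.46), add3a (2.53), stmn2a (2.64) and msx3 (2.06) were already called at 30% epiboly. The differences of angptl4 (-0.06), zeb2a (0.42), pdgfaa (0.38), tbx6 (0.07), tbx2b (0.51) and pax6a (-0.20) were not.

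Whether the difference itself changed between stages was tested as an interaction of genotype and stage with limma. No probe set was called (smallest adjusted p = 0.101), while 638 (8.65%) had an unadjusted p under 0.05. The interaction had an unadjusted p of 2.75e-05 for angptl4, 9.39e-05 for pdgfaa, 1.30e-04 for zeb2a, 1.09e-04 for pax6a and 1.78e-04 for her3. After adjustment none of these passed, so a difference that was called at 1 stage only is not shown to differ between the stages.

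**Figure D5:**
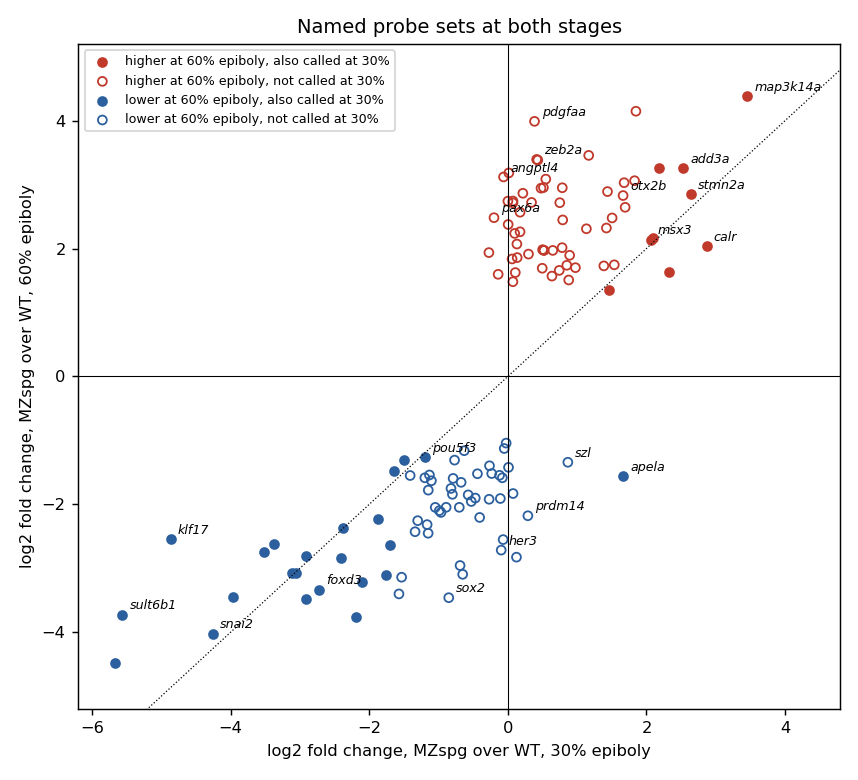
Log2 fold change of MZspg over WT at 30% epiboly (horizontal axis) and at 60% epiboly (vertical axis) for the named probe sets called at 60% epiboly, filled where they were also called at 30%, with the line of equality dotted. Several of the lower genes (blue), such as snai2 and foxd3, lie near the line, and many of the higher genes (red), such as pdgfaa and zeb2a, lie near 0 at 30% epiboly.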

How the data were processed

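Total RNA of whole embryos was measured on 8 Affymetrix zebrafish arrays, 2 for each of 2 genotypes and 2 stages. The deposited values are signal intensities on a linear scale, made with MAS5 per the submitters' processing notes and compared in Genedata Expressionist Analyst per the labels' design text. Filled cells have the same distribution on every array, so a change in total RNA cannot be seen. Between 9680 and 10608 cells per array are filled, and why the others are empty is not given in the sources used here. The values were therefore equalised over different numbers of probe sets on each array. The number of arrays limits the precision.

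Signals were taken as log2(signal + 9), and 8.35, the 10th percentile of values, stood in for empty cells. A group with no value on either array therefore had no spread between its replicates. Tested probe sets had a signal of 41.0 (the 40th percentile) or more on 2 or more arrays. In R 4.3.3, limma 3.58.1 fitted 1 mean per group to all 8 arrays (lmFit and eBayes with intensity trend, two-sided), with 4 residual and 7.67 prior degrees of freedom, and p-values were adjusted by Benjamini-Hochberg over 7375 probe sets. The script was tested on simulated data. Gene symbols came from the platform annotation: 9206 of 12447 probe sets have 1 symbol, 104 several and 3137 none. Of the 333 called, 95 had no single symbol and are not named. Gene lists use the brightest probe set of each gene, by its mean over all 8 arrays.

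Named genes were pou5f3, the 20 genes with the largest change in each direction (called, MZspg and WT arrays not overlapping, same sign in both replicate pairs, brightest probe set), genes called on at least 2 probe sets (up to 8 a direction), every list member called on its brightest probe set but 1 that is not reported here, and the 2 members with the smallest p in lists without one; other uncalled members are named as relatives of these. The comparison and the lists were chosen with earlier results of these data known. A planned search for promoter motifs was not run, as no promoter sequence was used here. The labels do not pair same-numbered samples, and replicate numbers were not used as pairs in the test. Deviations of same-numbered samples correlated at 0.08 at 60% and -0.14 at 30% epiboly over 7375 probe sets. Such a correlation cannot show that nothing is shared. At 60% epiboly same-numbered arrays were alike in spike-in signal, and a block for this gave 615 calls. Alternatives changed the pseudocount (32), the filter, the empty cells, the scaling, the variance trend, the arrays in the fit and a replicate block.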

Additional observations from a re-analysis of the deposited data

Results flagged for a closer look

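The apelin receptor ligand gene apela stood out because its genotype difference had opposite signs at the 2 stages and was called at both. At 60% epiboly its signals were 214 and 154 in MZspg, against 563 and 545 in WT, a log2 fold change of -1.56 (limma, adjusted p = 0.0229). At 30% epiboly they were 701 and 729.5 in MZspg, against 166 and 291 in WT, a log2 fold change of 1.66 (adjusted p = 0.0292). Every MZspg array was below every WT array at the later stage and above them at the earlier one. The test of the difference between the stages gave an unadjusted p of 2.27e-05, which was 0.101 after adjustment over all probe sets and so did not pass.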

How the results depend on the processing

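The 333 calls (168 higher, 165 lower) became 116 (37 and 79) with a stricter filter, 65 (29 and 36) with only the 4 arrays of 60% epiboly, 32 (10 and 22) in the first replicate pair alone and 206 (107 and 99) in the second pair alone, the one with high spike-in signal. The last 2 take their spread from the arrays of 30% epiboly. Without a filter 260 were called, 159 higher and 101 lower. Leaving out 1 array gave 119 to 757 calls, 42 to 246 higher and 50 to 511 lower, and without WT replicate 2 of 60% epiboly 42 of 131 were higher. For the interaction of genotype and stage the count was 0 to 54, the latter without MZspg replicate 1 of 60% epiboly. The cause of these shifts was not tested, other than that fewer arrays or probe sets entered. With a pseudocount of 32 there were 439 calls, with arrays centred on their medians 455, with new quantile normalisation 301, with empty cells left missing 261, with probe sets empty on any array of the stage left out 286, and without the trend 360.

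A replicate block over all 8 arrays gave 301 calls. Within the 60% arrays alone the block, which is the same as a term for the spike-in level, gave 615 (266 higher and 349 lower), including all 333. The labels do not say that the numbers pair the samples.

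Of 130 named probe sets that were called, 13 were called under every alternative that tested them: those of angptl4, her3, pax6a, pkp3a, scinlb, slc27a2a, slc4a2a, snai2, sult6b1, tagln2 and zeb2a, and both of fzd9b. No named probe set that was called changed direction. Some uncalled genes named above, among them gsc, ppl and mdkb, had opposite signs in the replicate pairs. Medians of lists near 0 changed sign under some settings, as in the enveloping layer list (-0.06, but 0.12 in the second pair). Those of the oxidative phosphorylation, mitochondrial ribosome and proteasome lists were below 0 in the first pair alone. The median of the SoxB1 and pluripotency-type list stayed between -1.52 and -1.17 in all settings. Where a group had no value, signal near background limits the result to a bound.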

Other observations

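The 11 called genes below fall outside the rule for named genes and their values were known when they were picked. The Krüppel-type factor klf11a had signals of 125 and 214 on the MZspg arrays, against 17.3 and 17.2 on the WT arrays (limma, log2 fold change 2.72, SE 0.378, adjusted p = 0.00249). The homeobox gene dmbx1a, a marker of the future midbrain, had 69.4 and 141 in MZspg and no value in WT, and was at least 4.02-fold higher (adjusted p = 0.0193). In the same direction the forkhead gene foxp2 gave 1.69 (adjusted p = 0.0241) and the homeobox gene nkx2.7 gave 1.62 (0.0228) on the log2 scale. The apoptosome gene apaf1 had 135 and 293 in MZspg, against 26.1 and 36.7 in WT (2.38, adjusted p = 0.0139), while its second probe set gave 0.04. The pleckstrin-homology gene phlda2 had 44.2 and 83.3 in MZspg and no value in WT, and was at least 2.46-fold higher (adjusted p = 0.0128).

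Genes of cell adhesion and of other functions were also among them. The adaptor gene bcar1, a substrate of focal adhesion kinases, had 169 and 139.9 in MZspg, against 37.5 and 31.2 in WT (1.91, adjusted p = 0.0108). The hyaluronan receptor gene cd44a was lower, with 19.4 and 27.2 in MZspg, against 139 and 60.0 in WT (-1.66, adjusted p = 0.0461). The adhesion gene epcam had no value on either MZspg array, against 52.4 and 55.0 on the WT arrays, on 1 probe set (at least 2.18-fold lower, adjusted p = 0.023), but its brighter probe set gave 0.24. The second chemokine gene cxcl12a had 93.6 and 112 in MZspg, against 18.7 and 20.2 in WT (1.97, adjusted p = 0.0139), and its brighter probe set gave 2.01 without passing (adjusted p = 0.054). The RNA-binding gene hnrnpa0b had 1504 and 699 in MZspg, against 4599 and 3492 in WT (-1.96, SE 0.297, adjusted p = 0.00393), with -0.52 and -1.24 on its other probe sets.

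The calls of klf11a and hnrnpa0b held whichever array was left out, and that of bcar1 was lost without WT replicate 2 of 60% epiboly (adjusted p = 0.0586). The calls of apaf1, phlda2, epcam, cxcl12a and nkx2.7 were lost when either WT array or MZspg replicate 2 of that stage was left out (their highest adjusted p lay between 0.0855 and 0.127). Those of dmbx1a and foxp2 were lost without any WT array of either stage or MZspg replicate 2 of 60% epiboly (0.16 and 0.162), and that of cd44a held in 1 of the 8 fits (0.264).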
